A study of Mus musculus with 4 samples.

Results

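The 10 genes described here encode transcription factors of early blood progenitors with lymphoid potential: Ikzf1, Satb1, Mef2c, Bcl11a, Foxo1, Lmo2, Erg, Runx1, Spi1 and Myb. They were chosen by name from the 27998 genes of the count matrices, and all 10 were present there. Single-cell RNA was read with 10x Genomics droplets from LMPPs (lymphoid-primed multipotent progenitors) sorted from the bone marrow of C57BL/6 mice, with 1 library for each of 4 groups. The control mice kept RBPJ throughout, the uninduced mice lacked it, and the mice induced for 3 or 6 days began without it until doxycycline switched it on (an injection at 2 mg/ml into the abdomen, then drinking water at 1 mg/ml). The labels repeat that treatment text for all 4 libraries and give no allele, promoter, age or number of mice, so whether the control and uninduced mice also received doxycycline is not clear from them. The cells kept by the authors numbered 2693 for control, 2769 for uninduced, 1292 at 3 days and 2129 at 6 days, with between 10647894 and 23504158 unique molecular identifiers (UMIs, 1 per captured transcript) per library and a median of 6774 to 7920 UMIs per cell. Levels are UMIs of a gene per 1000000 UMIs of the cells (CPM).

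Progenitors of this kind hold the factors of several blood lineages at once, and the balance among those factors is tied to which lineages remain accessible. Ikzf1 (Ikaros), Mef2c, Satb1, Bcl11a, Spi1 (PU.1), Myb and Foxo1 are each needed for normal lymphoid development, Foxo1 among other things for Il7r transcription, while Lmo2, Erg and Runx1 belong to the factor set of stem and early progenitor cells. Activated Notch receptors turn on their target genes, Hes1 among them, by joining RBPJ on DNA. In the thymus, Lmo2, Spi1, Erg and Bcl11a are turned off as Notch-signalled precursors commit to the T cell lineage.

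All 10 genes are protein-coding in the GENCODE vM21 annotation of GRCm38. On the plus strand, Ikzf1 lies at chr11:11685003-11772926, Mef2c at chr13:83504034-83667080, Bcl11a at chr11:24078056-24174123, Spi1 at chr2:91082390-91115756, Foxo1 at chr3:52268336-52353221 and Lmo2 at chr2:103957986-103981878. On the minus strand, Satb1 lies at chr17:51736187-51833290, Runx1 at chr16:92601466-92826149, Myb at chr10:21124935-21160984 and Erg at chr16:95359169-95586593. RefSeq promoter windows of 250 bases before to 50 after a transcription start (GRCm38.p6) were at hand for 8 of the 10 genes, 18 windows in all. They were searched on both strands for TGGGAA, the core letters of the motif that RBPJ recognises. The letters stood in 4 of the 18 windows (22.2%), of Satb1, Bcl11a and Erg, against 25.6% of all 32851 promoter windows of that length. The 4 matches are shown because RBPJ is the factor that was switched on. The sites read 5′ to 3′ on the gene's strand with the match in capitals, where TTCCCA is the same motif on the opposite strand.
Bcl11a, 161 bases before its start, chr11:24080524-24080549, plus strand: gggtgctcatTGGGAAttgaattttt
Satb1, 70 bases before the fifth listed start, chr17:51812109-51812134, minus strand: tcctccctacTTCCCActctcccctc
Satb1, 17 bases after the third listed start, chr17:51826556-51826581, minus strand: gtccagctgcTTCCCAggcaactggt
Erg, 250 bases before the third listed start, chr16:95459349-95459598, minus strand, with the match 16 bases before that start: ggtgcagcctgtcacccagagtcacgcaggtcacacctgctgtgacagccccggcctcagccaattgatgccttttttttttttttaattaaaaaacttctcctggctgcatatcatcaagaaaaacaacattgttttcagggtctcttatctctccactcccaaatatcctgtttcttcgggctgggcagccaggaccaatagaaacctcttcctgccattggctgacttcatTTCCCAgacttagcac
The Erg stretch lies inside the gene, before an internal start, and overlaps no annotated coding sequence or UTR. Exons of noncoding transcripts were not looked up. The files hold no measure of RBPJ binding, and the matches are descriptions of letters.

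The genes that check the labels stood as follows. Rbpj was at 508 and 485 CPM after 3 and 6 days of induction and at 17.8 and 11.2 CPM in the control and uninduced libraries, with Hes1, in the same order, at 43.5, 129, 89.7 and 18 CPM. Rbpj UMIs were found in 44.4% and 45.6% of the 3-day and 6-day cells, and 14.6% of the 3-day UMIs came from 10 cells. Of genes that mark LMPPs, Flt3 was at 191 to 223 CPM, Cd34 at 411 to 484 CPM and Kit at 44.2 to 60.8 CPM. Cd3e, of mature T cells, was at 0 in every library. Other T lineage genes did have UMIs, and the 8 looked up summed to 63.9 to 70.8 CPM per library. The 8 B lineage genes summed to 49.2 to 80.5 CPM. The 6 megakaryocyte genes summed to 140 CPM at 6 days, mostly from 10 cells, and to 7.83 to 10.9 CPM elsewhere. Cells with over 1% of their UMIs in lists of mature myeloid, granulocyte-monocyte or erythroid genes numbered 8, 36, 20 and 42 in the control, uninduced, 3-day and 6-day sets, where the 15 mature neutrophil and monocyte genes summed to 1174, 3819, 4579 and 3259 CPM. Any pair of libraries shared 2 to 17 cell barcodes. Barcodes with 10 to 100 UMIs, which hold RNA from outside the cells, carried these genes too. Lmo2 was above its cell level there, at 822, 845, 763 and 701 CPM in the 4 libraries in that order, and, like the cell level, it was lowest at 6 days. Mef2c was below its cell level, at 388 to 437 CPM, and Ikzf1 lay at 127 to 151 CPM. Fewer cells of a type and less RNA per cell cannot be told apart in the summed levels.

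Across the 4 libraries the levels of these factors differed little (plot of levels by library). With 1 library per group no difference between libraries has a replicate check or a p-value, and the 5 comparisons made share libraries. Intervals are at 95% and cover counting error only, and library preparation and group cannot be told apart. None of the 9 genes at 10 CPM or more was past 1.5-fold in any comparison, where 1.62% of all genes at that level were for uninduced against control, 1.47% for 3 days against uninduced, 1.14% for 6 days against uninduced, 2.4% for 6 days against 3 days and 0.94% for 6 days against control. Foxo1 stayed below the minimum, at 5.23, 5.54, 6.48 and 4.98 CPM in control, uninduced, 3-day and 6-day cells, with overlapping intervals.

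**Figure D1:**
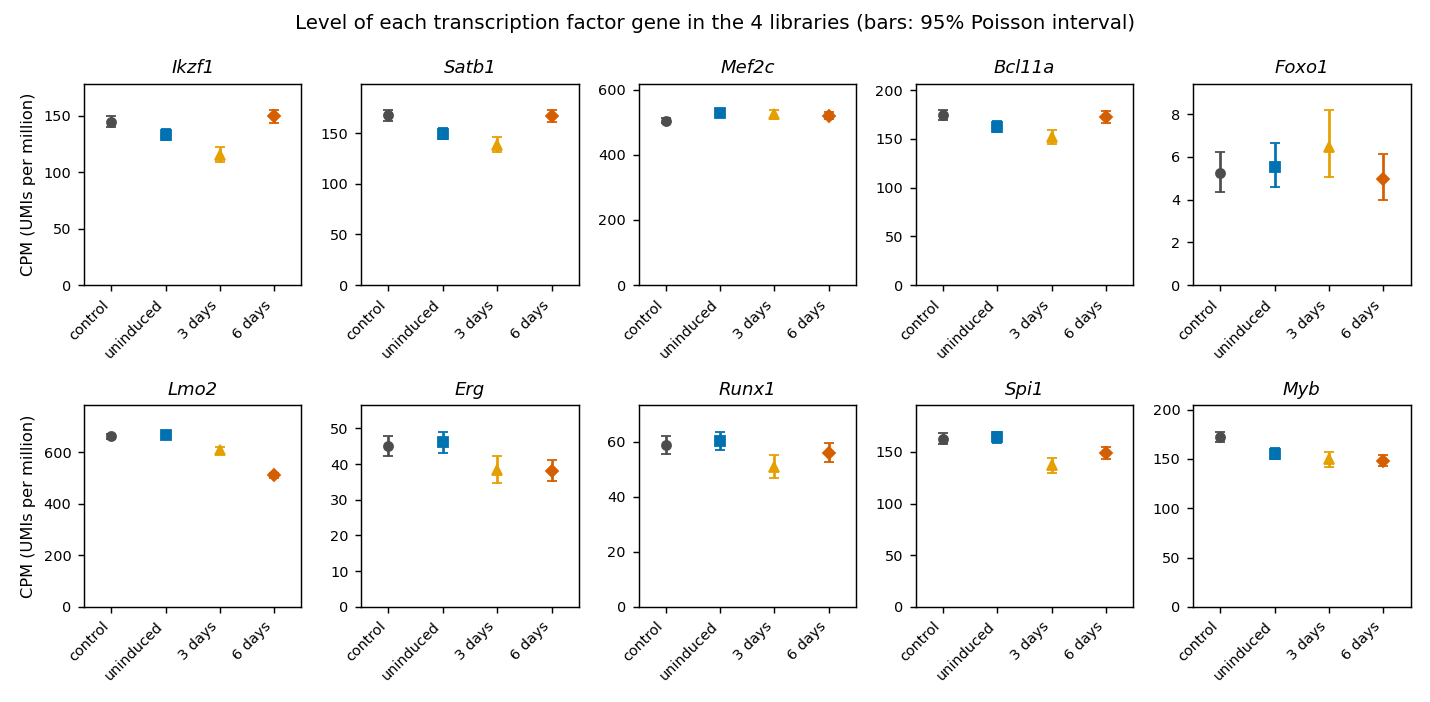
Level of each of the 10 genes (CPM, axis from 0) in the control, uninduced, 3-day and 6-day libraries, 1 library per group, with bars for the exact Poisson 95% interval. Lmo2 is lowest at 6 days (511 CPM), while Mef2c stays between 506 and 528 CPM.

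Uninduced cells, which lacked RBPJ, differed little from control cells in these genes, and none of the 9 was 25% above or 20% below its control level, where 8.6% of all genes were. Mef2c, which favours lymphoid over myeloid fate, was at 506 CPM in control and 528 in uninduced cells, a ratio of 1.04 (1.02 to 1.07). Satb1, a chromatin organiser of lymphoid genes, was at 168 and 149 CPM, a ratio of 0.891 (0.850 to 0.934). Ikzf1, the zinc finger factor of lymphoid priming, was at 145 and 133 CPM, a ratio of 0.922. The other members lay between 0.902 for Myb, the progenitor proliferation factor, and 1.03 for Erg and Runx1. The median of the 9 ratios was 1.01 beside 0.950 for all 7235 genes compared, and 5 of the 9 were above 1, or 3 in thinned cells and 4 without cells of other types.

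At 3 days of induction all 9 genes had a ratio to uninduced cells below 1, with none as far as 20% below, where 9.66% of all genes were past that fold in either direction. Spi1, the ETS factor of myeloid and early lymphoid fate, was at 164 CPM in uninduced and 137 in 3-day cells, a ratio of 0.834 (0.784 to 0.887). Erg, an ETS factor of stem cell maintenance, was at 46.1 and 38.4 CPM, a ratio of 0.833 (0.740 to 0.936). Runx1, the core-binding factor of definitive blood formation, was at 60.2 and 50.8 CPM, a ratio of 0.844 (0.762 to 0.934). In each of these 3 the intervals of the 2 libraries did not overlap. Ikzf1 was at 133 and 115 CPM (0.865), Lmo2 at 669.6 and 608 CPM (0.907), and the ratios nearest to 1 were those of Mef2c (0.993) and Myb (0.962), whose intervals reached past 1. The median ratio was 0.907 beside 0.995 for all genes, and with DESeq2 size factors or thinned cells 8 of the 9 ratios, not 9, were below 1. The 65 other transcription factors on the list had nearly the same median, 0.910 over the 43 at 10 CPM or more.

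At 6 days Lmo2 stood lower than in every other library. Lmo2, a LIM-domain bridge between DNA-binding factors in stem and progenitor cells, was at 663 CPM (653 to 673) in the control library and 669.6 CPM (659 to 681) in the uninduced one. After 3 days it was at 608 CPM (593 to 623) and after 6 days at 511 CPM (501 to 522). The control and uninduced intervals overlapped, and those of the 3-day and 6-day libraries lay below them and apart from each other. The ratio to uninduced cells was 0.763 (0.743 to 0.784), and 1.37% of all genes compared had a lower one. Lmo2 was the 1 member of 9 that was 25% above or 20% below its uninduced level, against 5.57% of all genes, of which 2.66% were on the lower side. It was again the 1 member past that fold against control (0.771, 0.751 to 0.791), against 7.44% of all genes, with 5.87% on the lower side. Erg was also lower at 6 days, at 38.1 CPM and a ratio to uninduced of 0.826 (0.747 to 0.913).

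In CPM over all cells, the lymphoid factors Ikzf1 and Satb1 stood near their control levels at 6 days. Ikzf1 was at 149 CPM against 145 in control, and its ratio to the 3-day library, 1.29 (1.21 to 1.39), was the 1 among the 9 past the same fold in that comparison, against 13.4% of all genes, of which 7.33% were higher. Satb1 was at 167 CPM against 168 in control, with a ratio to 3 days of 1.20 (1.13 to 1.28). Bcl11a, a zinc finger repressor needed for B cell and dendritic cell formation, was at 174, 162, 152 and 172 CPM in control, uninduced, 3-day and 6-day cells. For all 3 the 3-day library was the lowest and the control and 6-day intervals overlapped over all cells. Myb did not show this order, at 172, 155, 149.5 and 148 CPM, with control above the other libraries, whose intervals overlapped. Against control, 7 of the 9 ratios at 6 days were below 1, and 4 of 9 under either TMM or DESeq2 scaling, while the median of all genes was itself at 0.930. Ratios to control are thus higher under TMM, Ikzf1 and Satb1 included. Its scaling factors were 1.04 for control, 0.992 for uninduced and 0.982 for 6-day cells.

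Each library held cells of both sexes, and their mix also differed. Cells with UMIs of Xist, expressed from the inactive X chromosome of females, and of none of the 4 Y-linked genes searched made up 37.5%, 36.8%, 33.7% and 53.4% of control, uninduced, 3-day and 6-day cells. Among them Lmo2 was at 617, 600.4, 635 and 492 CPM, lowest at 6 days, with a ratio of 6 days to uninduced of 0.819 (0.789 to 0.852). Among cells with Y-linked but no Xist UMIs Lmo2 was at 693, 701, 581 and 523 CPM, again lowest at 6 days, with a ratio of 0.746 (0.708 to 0.786). The 3-day ratio of Lmo2 did not keep its direction, at 1.06 (1.01 to 1.11) in the first set and 0.829 (0.789 to 0.871) in the second. Ikzf1 at 6 days against 3 days was at 1.40 (1.26 to 1.56) and 1.16 (1.02 to 1.31), above 1 in both sets, while against uninduced cells it was at 1.18 (1.09 to 1.27) and 0.996 (0.894 to 1.11). For uninduced against control, Ikzf1 was at 0.831 (0.771 to 0.895) in the first set and 1.04 (0.954 to 1.14) in the second. Satb1 was at 0.936 (0.871 to 1.01) and 0.876 (0.807 to 0.951) in that comparison. Satb1 at 6 days against 3 days was above 1 in both sets, at 1.33 (1.20 to 1.47) and 1.21 (1.082 to 1.36), but Bcl11a in the first alone, at 1.28 (1.17 to 1.42) and 0.992 (0.888 to 1.11). This division of the cells was chosen after seeing the data.

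The share of cells that carried marker UMIs differed as well between the libraries. After each cell was thinned to 4700 UMIs, cells with UMIs of Hlf alone, a stem and early progenitor gene, made up 21.7%, 20.7%, 16.6% and 15.1% of control, uninduced, 3-day and 6-day cells. Cells with UMIs of Il7r alone, the receptor of lymphoid progenitors, made up 7.69%, 5.73%, 4.6% and 8.83%. The unthinned shares were 29.7%, 29.0%, 24.5% and 23.3% for Hlf and 10.3%, 7.15%, 6.19% and 11.9% for Il7r. Thus Hlf cells were fewer in both induced libraries. The Il7r share was lowest at 3 days, but its interval (3.43% to 6.01% thinned) overlapped that of uninduced cells (4.78% to 6.82%). The same held unthinned, at 4.94% to 7.65% and 6.22% to 8.17%.

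Within each kind of cell divided by these markers, Lmo2 was still lower at 6 days than in uninduced cells. It was at 705 against 889 CPM in Hlf cells (ratio 0.793, 0.757 to 0.832), at 302 against 362 CPM in Il7r cells (0.835, 0.755 to 0.923) and at 415 against 645 CPM in cells with UMIs of Ccr9 alone (0.643, 0.544 to 0.758). In cells with none of the markers it was at 515 against 630.5 CPM, a ratio of 0.817 (0.787 to 0.848). All 4 intervals lay below 1, and in the 12 and 13 Elane cells of these libraries the ratio was 0.846 (0.584 to 1.21). For Ikzf1 the same comparison gave 1.22 (1.06 to 1.41) in Il7r cells and 1.05 (0.970 to 1.13) in cells with no marker. Whether these ratios differ between kinds of cells was not tested, since each rests on 1 library per group.

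**Figure D2:**
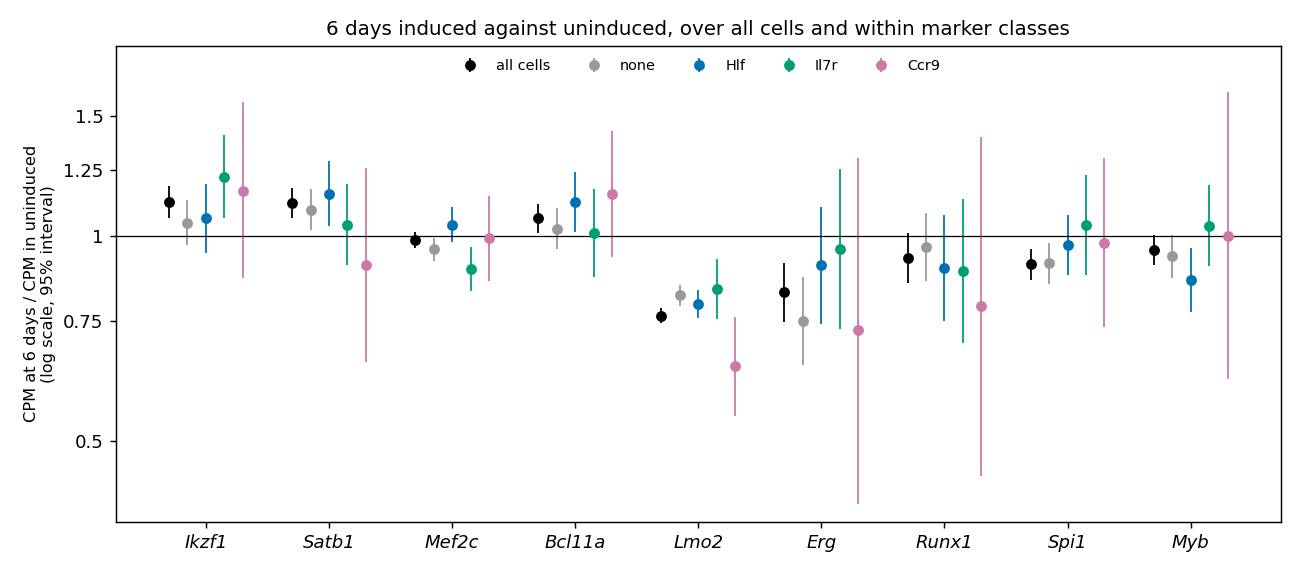
Ratio of the CPM at 6 days to the CPM in uninduced cells (log axis) for the 9 genes at 10 CPM or more, over all cells and within cells with no marker UMI or with Hlf, Il7r or Ccr9 UMIs alone, with the conditional exact 95% interval. Lmo2 lies below 1 in every kind of cell, from 0.643 to 0.835.

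Most cells held several of these factors together. In cells thinned to 4700 UMIs, the median cell had UMIs of 5 of the 10 genes in control, uninduced and 6-day libraries and of 4 at 3 days. At that depth Lmo2 UMIs were found in 89.8% (88.5 to 91.0), 89.3% (87.9 to 90.6), 88.6% (86.6 to 90.4) and 83.0% (81.1 to 84.7) of control, uninduced, 3-day and 6-day cells. Unthinned, the shares were 95.8%, 95.5%, 95% and 92.3%. Ikzf1 was found in 47.3%, 44.3%, 40.8% and 48.7% of thinned cells and in 64.6%, 58.7%, 57.2% and 63.6% unthinned. For comparison, among 12 cells with over 1% of their UMIs in erythroid genes (median 5534.5 UMIs, against 7352 over all cells), 8 had Lmo2 UMIs, 6 had Ikzf1 UMIs and 1 had Spi1 UMIs. All 13 cells with at least 10 Elane UMIs (median 13505 UMIs) had Spi1 UMIs, at 352 CPM against 156 over all cells.

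Lmo2 had the highest variance over mean of the 10 genes, a ratio that tends to be higher for genes of higher level. Per thinned cell it was 1.82, 1.80, 1.68 and 1.65 in control, uninduced, 3-day and 6-day cells, above that of 86.2% to 90.8% of the 500 genes nearest to it in level. Among their own neighbours other members stood as far out or further, with Bcl11a above 88.4% to 91.4% of them, Satb1 above 90.6% in uninduced cells and Myb above 89% at 3 days. Ikzf1 was closer to an even spread, at 1.02 to 1.10, above 31.2% to 69.4% of its neighbours. Foxo1 lay between 0.970 and 1.01, near the value of 1 that counting noise alone gives, at a level too low to show more.

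To ask how the factors differ among LMPPs, cells were divided by the UMIs they held of Hlf, Il7r, Ccr9 (a homing receptor of lymphoid and dendritic progenitors) and Elane (neutrophil elastase, of granulocyte-monocyte progenitors). Cells with UMIs of exactly 1 of these were compared with cells that had none, within libraries, with the 4 libraries as samples (edgeR quasi-likelihood test with the library as a block, Benjamini-Hochberg adjustment over 10271 genes). Cells with no marker numbered 799 to 1543 per library, Hlf cells 316 to 804, Il7r cells 80 to 277 and Ccr9 cells 41 to 103. Elane cells numbered 13, 14 and 12 in uninduced, 3-day and 6-day libraries, and the 6 of the control library were left out of the fit. Median UMIs per cell ranged from 9671 to 11311 in Il7r cells, 4795.5 to 5716 in Ccr9 cells and 6730 to 7490.5 in cells with no marker, so depth moved with the classes. Marker UMIs can also come from RNA outside cells, where Hlf stood at 47.5 to 79.0 CPM, near its 50.01 to 70.8 CPM in cells, and the part of this in the differences was not tested.

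**Figure D3:**
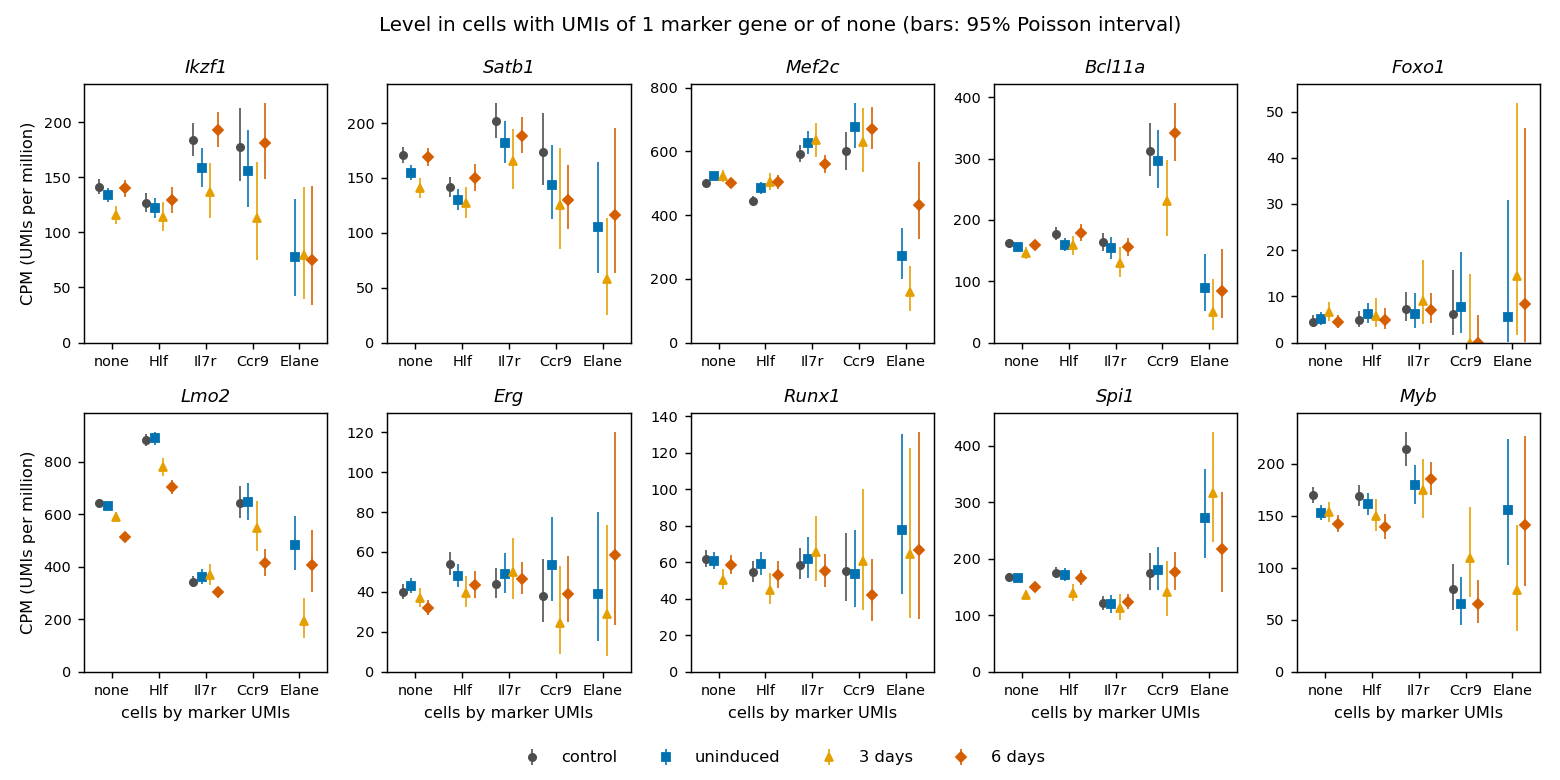
Level (CPM, axis from 0) of the 10 genes in cells with no marker UMI and in cells with UMIs of Hlf, Il7r, Ccr9 or Elane alone, per library, with exact Poisson 95% intervals (classes of under 10 cells left out). Lmo2 runs from 302 to 368 CPM in Il7r cells to between 705 and 889 CPM in Hlf cells, and Bcl11a is highest in Ccr9 cells.

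In Hlf cells Lmo2 and Erg were higher and Satb1 and Ikzf1 lower than in cells with no marker. These 4 of the 10 genes passed the test, 2 higher and 2 lower, where 7.33% of all genes did (3.87% higher and 3.46% lower). Lmo2 was at 882, 889, 781 and 705 CPM in Hlf cells of the control, uninduced, 3-day and 6-day libraries and at 644, 630.5, 588 and 515 CPM in cells with no marker. Every Hlf value lay above the other of its library, with a log2 fold of 0.41 ± 0.06 (SE, n = 4 libraries, edgeR adjusted p = 6.11e-06). Erg was at 54.1, 47.9, 39.6 and 43.4 CPM against 40.0, 42.9, 36.8 and 32.2 CPM, also higher in 4 of 4 libraries, by 0.26 ± 0.07 (adjusted p = 0.0154). Satb1 was at 142, 130.3, 127 and 150.2 CPM against 171, 155, 140.5 and 169 CPM, lower in 4 of 4, with a log2 fold of -0.26 ± 0.04 (adjusted p = 5.61e-05). Ikzf1 differed by -0.16 ± 0.05 (adjusted p = 0.0266), lower in 4 of 4 by little at 3 days, where it was at 114 against 115 CPM. Runx1, named above with Lmo2 and Erg, missed the threshold at -0.17 ± 0.06 (adjusted p = 0.0939), lower in 4 of 4 libraries, as did Mef2c at -0.12 ± 0.06 (adjusted p = 0.284). Bcl11a (0.07 ± 0.04), Spi1 (0.04 ± 0.04), Myb (-0.03 ± 0.05) and Foxo1 (0.06 ± 0.19) did not pass either. The members of each set thus did not move as one. Without cells of other types 6 members were called, 2 higher and 4 lower, where 11.7% of all genes were. The same counts held with all Hlf cells against all others, where 14.1% of all genes were called. In cells thinned to 4700 UMIs the differences of Satb1 (-0.19 ± 0.07, adjusted p = 0.0643), Erg (0.23 ± 0.10, adjusted p = 0.156) and Ikzf1 (-0.17 ± 0.06, adjusted p = 0.0906) were no longer called, with larger errors around folds of like size, and without the library block none of the 4 was. Erg was also lost without the control (adjusted p = 0.296) or 6-day library (0.0919), and Ikzf1 without the control (0.246), uninduced (0.117) or 6-day library (0.052).

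**Figure D4:**
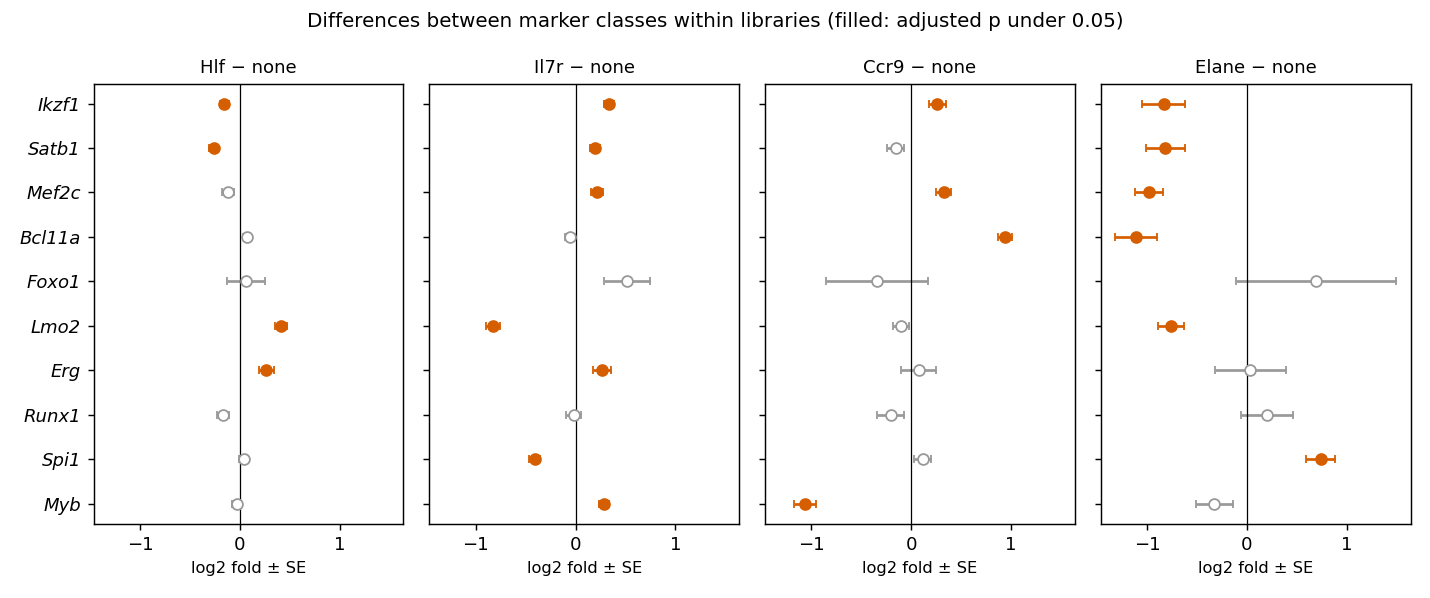
Log2 fold ± SE of each gene in cells with Hlf, Il7r, Ccr9 or Elane UMIs alone against cells with no marker (edgeR, library as a block, 4 libraries, 3 for Elane). Filled points have an adjusted p under 0.05, and the longest called distances from 0 are those of Bcl11a in Elane cells (-1.11) and Myb in Ccr9 cells (-1.06).

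In Il7r cells the pattern was the opposite for Lmo2, and Spi1 was lower while Ikzf1, Myb, Mef2c and Satb1 were higher. Of the 10 genes 7 passed the test, 5 higher and 2 lower, where 14.6% of all genes did (7.37% higher and 7.23% lower). Lmo2 was at 342, 362, 368 and 302 CPM in Il7r cells of the control, uninduced, 3-day and 6-day libraries, a log2 fold of -0.82 ± 0.07 against cells with no marker (n = 4 libraries, edgeR adjusted p = 7.03e-13). The highest Il7r value lay below the lowest value of the cells with no marker, 515 CPM. Spi1 was at 121, 119, 113 and 123 CPM against 167, 165, 136 and 151 CPM, again without overlap, and fell by 0.41 ± 0.06 on the log2 scale (adjusted p = 2.27e-07). Ikzf1 was at 184, 158, 136 and 193 CPM against 141, 134, 115 and 139.8 CPM, higher in 4 of 4 libraries by 0.34 ± 0.05 (adjusted p = 2.24e-06). Myb was at 214, 179, 175 and 185 CPM against 170.0, 153, 154 and 142 CPM, also higher in 4 of 4, by 0.28 ± 0.05 (adjusted p = 6.79e-05). Satb1 and Mef2c were higher by 0.20 ± 0.05 (adjusted p = 0.00426) and 0.21 ± 0.06 (adjusted p = 0.0157) in 4 of 4 libraries each. Erg was called at 0.26 ± 0.09 (adjusted p = 0.0470), and in thinned cells it stood at -0.01 (adjusted p = 0.984). Foxo1 was at 7.26, 6.09, 9.08 and 7 CPM against 4.54, 5.11, 6.54 and 4.45 CPM, higher in 4 of 4 libraries with a log2 fold of 0.52 ± 0.23 that did not pass (adjusted p = 0.136). In thinned cells Ikzf1 (0.13 ± 0.09, adjusted p = 0.535), Myb (0.14 ± 0.08, adjusted p = 0.413) and Satb1 (0.20 ± 0.09, adjusted p = 0.217) were not called either, the first 2 with smaller folds and Satb1 with the same fold and a larger error, while Lmo2, Spi1 and Mef2c passed. Without the library block Lmo2, Spi1 and Ikzf1 passed, Mef2c was lost without the control (0.11) or uninduced library (0.108), Satb1 without the control (0.0695), and Erg without the uninduced (0.0719), 3-day (0.0845) or 6-day (0.412) library.

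In Ccr9 cells Bcl11a was higher and Myb lower than in cells with no marker, each by about 1 on the log2 scale. Mef2c and Ikzf1 were higher as well, and these 4 of the 10 genes passed, where 14% of all genes did (6.81% higher and 7.17% lower). Bcl11a was at 313, 297, 230.2 and 342 CPM in Ccr9 cells of the control, uninduced, 3-day and 6-day libraries against 162, 155, 145 and 159 CPM in cells with no marker. The groups did not overlap, and the log2 fold was 0.94 ± 0.07 (n = 4 libraries, edgeR adjusted p = 2.47e-14). Myb was at 79.4, 65.1, 109 and 65.1 CPM against 170.0, 153, 154 and 142 CPM, without overlap, and fell by 1.06 ± 0.11 on the log2 scale (adjusted p = 4.26e-10). Mef2c was at 599.9, 678, 630.1 and 672 CPM against 499, 523, 522 and 499 CPM, higher in 4 of 4 by 0.32 ± 0.07 (adjusted p = 0.00125). Ikzf1 was higher by 0.26 ± 0.08 (adjusted p = 0.0296) in 3 of 4 libraries, and at 113 against 115 CPM at 3 days. Lmo2 did not pass (-0.10 ± 0.08, adjusted p = 0.443), nor did Spi1 (0.12 ± 0.08, adjusted p = 0.418). The Ikzf1 call was lost without a filter on low counts (adjusted p = 0.164), in thinned cells (adjusted p = 0.462), and without the control (0.159), uninduced (0.0769) or 6-day (0.223) library.

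In Elane cells the myeloid factor Spi1 was higher and 5 other members were lower, in 39 cells over 3 libraries. These 6 of the 10 genes passed, where 8.25% of all genes did (3.93% higher and 4.31% lower). Of the 13, 14 and 12 Elane cells in the uninduced, 3-day and 6-day libraries, 6, 9 and 6 held 2 or more Elane UMIs. The others held 1. Spi1 was at 272, 316 and 217 CPM in Elane cells of the uninduced, 3-day and 6-day libraries against 165, 136 and 151 CPM, without overlap, a log2 fold of 0.74 ± 0.14 (n = 3 libraries, edgeR adjusted p = 0.000171). Bcl11a was at 88.7, 50.3 and 83.3 CPM against 155, 145 and 159 CPM, also without overlap, and fell by 1.11 ± 0.21 (adjusted p = 0.000149). Mef2c was at 272, 158 and 433 CPM against 523, 522 and 499 CPM, a log2 fold of -0.98 ± 0.14 (adjusted p = 5.64e-07). Ikzf1 (-0.83 ± 0.21, adjusted p = 0.00666), Satb1 (-0.82 ± 0.20, adjusted p = 0.00328) and Lmo2 (-0.76 ± 0.13, adjusted p = 2.41e-05) were lower in 3 of 3 libraries. Myb, Runx1, Erg and Foxo1 did not pass, with standard errors between 0.19 and 0.80. Without the 3-day library Spi1 (0.53, adjusted p = 0.0561) and Satb1 (adjusted p = 0.0889) lost their calls, as did Ikzf1 without the uninduced (0.0764) or 6-day library (0.0631), and the median of all genes here was -0.21, or -0.09 with DESeq2 size factors, so these folds are relative to it.

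Set directly against each other, Hlf and Il7r cells differed most in Lmo2. In the Hlf to Il7r comparison 6 of the 10 genes passed, 2 higher and 4 lower, where 20% of all genes did (9.88% higher and 10.1% lower). Lmo2 was 2.12-fold to 2.58-fold higher in Hlf cells of each library (log2 fold 1.24 ± 0.07, adjusted p = 1.09e-18), and Spi1 was higher by 0.45 ± 0.06 (adjusted p = 6.08e-08). Ikzf1 (-0.49 ± 0.06), Satb1 (-0.45 ± 0.05), Mef2c (-0.33 ± 0.06) and Myb (-0.32 ± 0.06) were lower, each in 4 of 4 libraries and with an adjusted p of at most 0.00011. Erg, higher in Hlf cells than in cells with no marker, was not called against Il7r cells (0.002 ± 0.10, edgeR adjusted p = 0.993). It was lower in Hlf than in Il7r cells in 3 of 4 libraries. In thinned cells Myb was not called (-0.14 ± 0.09, adjusted p = 0.359), nor was Mef2c without the library block (-0.33, adjusted p = 0.0575). The Ccr9 to Il7r comparison called 5 of the 10, 3 higher and 2 lower, where 19.3% of all genes were called (9.25% higher and 10.1% lower). Bcl11a was 1.76-fold to 2.20-fold higher in Ccr9 cells of each library (1.00 ± 0.08, adjusted p = 3.52e-14), and Lmo2 (0.72 ± 0.08, adjusted p = 3.71e-09) and Spi1 (0.52 ± 0.09, adjusted p = 2.97e-05) were higher. Myb was lower by 1.35 ± 0.11 (adjusted p = 5.57e-13), and Satb1 had a log2 fold of -0.35 ± 0.09 (adjusted p = 0.00311). In thinned cells Spi1 was not called (0.42 ± 0.15, adjusted p = 0.0662), nor was Satb1 without the 6-day library (-0.28, adjusted p = 0.0809). Ikzf1 and Mef2c did not pass between these classes (-0.08 ± 0.09 and 0.11 ± 0.08).

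For 4 pairs of gene and marker, chosen after their class differences were seen, the level was also followed by the number of marker UMIs in cells of equal depth. In control cells thinned to 4700 UMIs, Lmo2 was at 633 CPM (617 to 651) with no Hlf UMI, 822 (781 to 865) with 1 and 1003 (931 to 1079) with 2 or more. At 6 days the same 3 levels were 476 (460 to 493), 667 (618 to 719) and 774 (686 to 870) CPM. Within each of the 4 libraries the level was higher at each step, and the 6-day level lay below the control level at each. Lmo2 by Il7r UMIs went the other way, from 721 to 371 and 326 CPM in control and from 539 to 317 and 229 CPM at 6 days. Bcl11a by Ccr9 UMIs was at 169, 312 and 418 CPM in control and at 165, 305 and 395 CPM at 6 days. Myb with 2 or more Ccr9 UMIs was at 58.7, 67.2, 35.5 and 48.6 CPM in control, uninduced, 3-day and 6-day cells, against 143 to 173 CPM with none, although with 1 Ccr9 UMI at 6 days it was at 150.2 CPM (105 to 208). These last classes are small, from 12 to 35 cells.

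**Figure D5:**
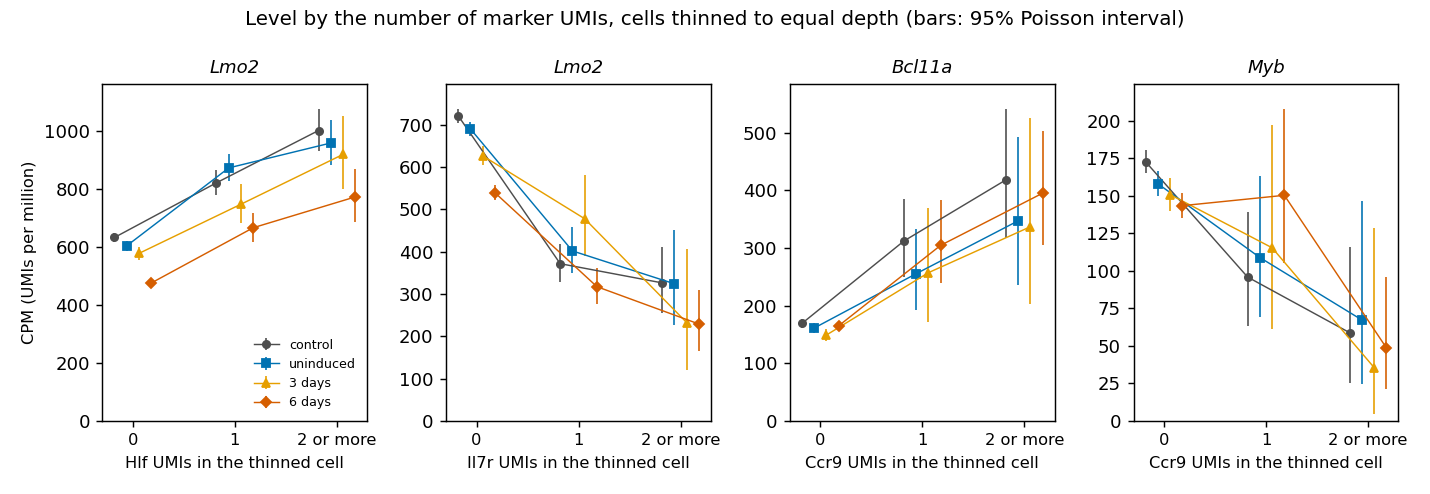
Level (CPM, axis from 0) of Lmo2 by Hlf UMIs, Lmo2 by Il7r UMIs, Bcl11a by Ccr9 UMIs and Myb by Ccr9 UMIs, in cells thinned to 4700 UMIs, for the 4 libraries, with exact Poisson 95% intervals. Lmo2 is higher with more Hlf UMIs, from 633 to 1003 CPM in control, and lower with more Il7r UMIs, and Bcl11a is higher with more Ccr9 UMIs.

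Other transcription factors of blood progenitors were looked up from a list of 65, of which 54 were tested between classes. In Hlf cells 9 were higher and 8 lower. Mecom (0.84 ± 0.07) and Gata2 (0.80 ± 0.14), factors of stem cells, were the furthest up, and Cebpe, with 7 UMIs in 2414 Hlf cells, and Ebf1 (-2.64 ± 0.38), the B lineage factor, the furthest down. In Il7r cells 6 were higher and 13 lower, with Ebf1 at 2.61 ± 0.18 and Bach2 at 0.87 ± 0.20 furthest up and Gata2 at -1.83 ± 0.31 and Cebpe, which had no UMI in 808 cells, furthest down. In Ccr9 cells 12 were higher and 8 lower, among them Irf4 (2.99 ± 0.71, from 11 UMIs), Mycn (1.55 ± 0.16), Mybl2 (-1.44 ± 0.34) and Cebpe, with 1 UMI. In Elane cells 5 were higher, led by Cebpe (4.30 ± 0.34), a granulocyte factor, and Id2 (1.85 ± 0.32), and 8 were lower, led by Hoxa9 (-2.14 ± 0.29) and Myc (-1.5 ± 0.30). Of all genes tested, 7.33%, 14.6%, 14% and 8.25% were called in Hlf, Il7r, Ccr9 and Elane cells. The median log2 folds over the 54 were -0.01, -0.03, 0.12 and -0.41 for Hlf, Il7r, Ccr9 and Elane cells, beside -0.21 for all genes in Elane cells and values within 0.01 of 0 in the others. Between libraries Ebf1 was the 1 factor of 45 at 10 CPM or more past 1.5-fold at 6 days against uninduced. It was at 21.4 against 9.88 CPM, a ratio of 2.17 (1.83 to 2.58), and 1.14% of all genes were past that fold. Against the 3-day library 4 of 44 were higher by that fold, where 1.64% of all genes were. Ebf1 (2.00) and Id3 (1.74) were the furthest up of these.

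Genes of lymphoid priming and presumed targets of these factors, 30 on the list and 27 tested, were compared between the same classes. In Il7r cells 11 were higher and 5 lower, with Ly6d (3.26 ± 0.13), a surface marker of B-primed progenitors, and Rag1 (2.40 ± 0.29), of the recombinase, furthest up and Kit (-0.72 ± 0.09) and Csf3r (-0.68 ± 0.14) furthest down. In Hlf cells 3 were higher, including Kit (0.43 ± 0.06) and Csf3r (0.33 ± 0.09), and 12 lower, with Cd79a (-3.24 ± 0.58, 7 UMIs in Hlf cells) and Igll1 (3 UMIs) furthest down. In Ccr9 cells 10 were higher, led by Ccr7 (2.47 ± 0.31) and Lax1 (1.40 ± 0.17), and 3 lower, among them Bcl2 (-0.96 ± 0.11). In Elane cells Csf1r was higher (1.98 ± 0.56, from 12 UMIs) and 5 were lower, led by Flt3 (-1.45 ± 0.22) and Dntt (-1.35 ± 0.14). The medians over the 27 were -0.16, 0.08, 0.34 and -0.77 for Hlf, Il7r, Ccr9 and Elane cells, where 7.33%, 14.6%, 14% and 8.25% of all genes were called. Between libraries Il7r was at 32.4 CPM at 6 days against 18.5 in uninduced cells (1.75, 1.54 to 2.00), and Rag2 at 13.9 against 8.73 CPM (1.59, 1.30 to 1.93). Ly6d was at 12.4, 26.1, 12.2 and 28.5 CPM in control, uninduced, 3-day and 6-day cells, high in uninduced and 6-day cells and lower elsewhere.

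Over the 15 sums of a class in a library with at least 50 cells, the genes whose log2(CPM + 1) followed a member most closely were found among 6571 genes. For Bcl11a they were Sytl1 (Pearson r = 0.996), Ppp3ca (0.986) and Hlx (0.966). For Ikzf1 they were Ets1 (0.964), Pan3 (0.901) and Tmem108 (0.900), and for Lmo2 Ifitm2 (0.942), Skap2 (0.941) and Mecom (0.937). Myb went with Naa50, Ybx1 and Cmtm7 (0.974 to 0.975), and Mef2c with Ift57 (0.931), Evl (0.930) and Azin2 (0.919). Satb1 went with Nos1ap (0.928), Fbxw11 (0.900) and Hnrnpl (0.861), and Spi1 with Wfdc17 (0.940), Sepp1 (0.935) and Trim8 (0.934). The closest were looser for Runx1, with Homer3 (0.862), Clic4 (0.839) and Plk4 (0.828), and for Erg, with Arid2 (0.871), Dpf2 (0.805) and Cfap20 (0.792), and Foxo1 was too low for the search. Among the members themselves, Bcl11a and Myb ran most opposed (r = -0.93), then Ikzf1 and Lmo2 (-0.70), while Spi1 and Lmo2 ran most together (0.73). The points share libraries, depth and the few Ccr9 sums, so these are descriptions of the 15 sums.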

How the data were processed

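Sorted LMPPs were run on the 10x Genomics platform and a NextSeq 500, per the labels' protocols. Seurat and mm10 are named in the submitters' processing notes, and the aligner, counter, annotation and use of strand are not given in the sources used here, so 7 members that overlap an antisense gene cannot be told apart from it. The deposited matrices hold whole UMI counts per gene and barcode. The authors' deposited log2 tables, log2 of count over a cell size factor plus 1, matched those counts within 1e-06 and served to list the cells. No doublet caller was run, and doublets were kept.

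UMIs were summed per library, or per library and marker class with at least 10 cells, leaving out cells with several markers. Class sums were tested with edgeR 4.0.16 (quasi-likelihood, TMM, filterByExpr, library as block, adjusted p under 0.05, the 4 markers left out). The SE given with a log2 fold is its absolute value divided by the square root of the F statistic of that test. It is not a spread measured over the libraries. On simulated Il7r to no-marker data (9941 genes), 34 of 50 genes made 25% higher, 49 of 50 at 1.5-fold, all 50 at 2-fold and 8 of 9741 unchanged genes were called. Apart from the changed genes, these counts followed a single profile. They held no library effect, depth per cell or RNA from outside cells, so they cannot show calls that arise from those. Between libraries there was no test. CPM carried exact Poisson, ratios conditional exact and shares exact binomial (Clopper-Pearson) 95% intervals. Named genes were the members, markers, Rbpj, Hes1, the 2 highest and 2 lowest of each list past the threshold, and the 3 genes most like each member, and 1 gene that this rule names is not reported here. Thinning to 4700 UMIs left out 351, 676, 204 and 374 cells. Members and lists were chosen with earlier results of these data known. Samples were separate libraries by the labels, with no replicate within a group. Alternatives covered scaling, filters, thinning, cell sets, class rules, DESeq2 1.42.0 and leaving out each library.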

Additional observations from a re-analysis of the deposited data

How the results depend on the processing

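Between groups no paired analysis was possible because the 4 groups hold a single library apiece. The class tests did compare cells within libraries. With a limit of 25% above or 20% below in place of 1.5-fold, 1 member was past the fold at 6 days against uninduced, 1 against 3 days and 1 against control, in place of 0. For Hlf against no marker, 4 members were called as reported, 2 with DESeq2, 0 without the library block, 1 in thinned cells, and 2 to 4 when each library was left out in turn, with 2 without the control library. More were called, 6 with 2 higher and 4 lower, without cells of other types and with all Hlf cells against all others. For Il7r against no marker 3 were called without the block and 3 in thinned cells, in place of 7, and for Ccr9 against no marker 2 without the block, in place of 4. The Erg difference in Il7r cells was -0.013 in thinned cells, in place of 0.26. The cause of these changes was not tested. Thinning left fewer cells and genes (7191 genes tested in place of 10271), and it also changed which cells made up each class. The no-marker class grew from 1388 to 1549 control cells, from 799 to 807 at 3 days and from 1152 to 1217 at 6 days. Among uninduced cells it went from 1543 to 1454. Some cells with a marker UMI before thinning thus counted as cells with no marker after it.

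Counts over all genes moved by more than 1.5 times as well. For Hlf against no marker 753 genes were called as reported, 354 with DESeq2, 206 without the block, 474 thinned, 1551 with all Hlf cells against all others, 1175 without cells of other types, 332 without the control and 415 without the uninduced library. For Il7r against no marker the counts were 1500, 705 without the block, 370 thinned and 840 without control. For Hlf against Il7r they were 2056, 1198 without the block, 770 thinned and 1218 without control. For Ccr9 against no marker they were 1435, 807 at 2 marker UMIs, 606 thinned and 914 without control, for Ccr9 against Il7r 1986, 1074 at 2 marker UMIs and 560 thinned, and for Elane 847 and 523 without the 3-day library. With DESeq2 size factors in edgeR the split of higher to lower genes was 856 to 549 in place of 699 to 736 for Ccr9 against no marker, 509 to 310 in place of 404 to 443 for Elane, and 1204 to 811 in place of 950 to 1036 for Ccr9 against Il7r. DESeq2 itself gave 900 to 478, 616 to 259 and 1246 to 721. For Hlf against no marker the split was 398 to 355, and 625 to 926 with all Hlf cells against all others.

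The Lmo2 ratio at 6 days to uninduced lay between 0.746 and 0.819 under the 9 alternatives run on it, of which the 2 that divided cells by Xist and Y-linked UMIs were chosen after seeing the data. Of the log2 folds of members between classes, 578 kept direction and side of the threshold, 50 lost their call, 10 gained one and 22 changed sign, 21 of them folds that were called in neither setting. In thinned cells these were, for Il7r against no marker, Bcl11a (0.18) and Runx1 (0.017), for Ccr9 against no marker Spi1 (-0.00015), for Hlf against Il7r Bcl11a (-0.032), and for Ccr9 against Il7r Ikzf1 (0.060), Mef2c (-0.0093) and Erg (0.17). With all cells of a marker against all others they were Runx1 in Il7r (0.025), Foxo1 in Ccr9 (0.13) and Erg in Elane cells (-0.17). Erg was at -0.54 in Ccr9 cells at 2 marker UMIs and at -0.0019 in Elane cells without a filter. Without the block Runx1 was at 0.010 in Il7r cells and Erg at -0.011 for Hlf against Il7r. With each library left out in turn, Erg ranged from -0.14 to 0.059 for Hlf against Il7r, from -0.039 to 0.16 in Ccr9 cells and from -0.29 to 0.18 in Elane cells, Foxo1 from -0.020 to 0.12 in Hlf cells and from -0.90 to 0.11 in Ccr9 cells, and Runx1 from -0.065 to 0.016 in Il7r cells. The Elane class could not be fitted at 2 marker UMIs, in thinned cells or without cells of other types, where it held under 10 cells in every library. Of 50 ratios between libraries, 9 lay on the other side of 1 in cells with Xist UMIs, 7 in cells with Y-linked UMIs, 7 in thinned cells, 5 with DESeq2 size factors, 5 in cells with no marker, 4 with TMM and 2 without cells of other types. Depth limits Foxo1, with 69 to 123 UMIs per library, and the Elane class, with 12 to 14 cells.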
